A study of Mus musculus with 18 samples.

Results

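The 8 genes described here encode enzymes of the pentose phosphate pathway and enzymes that make NADPH in the cytosol and mitochondria: G6pdx, Pgls, Pgd, Taldo1, Tkt, Me1, Me2 and Idh1. They are a list of symbols, set by no threshold on measured values but with earlier results of these data known, and were matched to their Entrez identifiers among the 24052 genes of the count tables. All 8 were matched, and all 8 passed the filter on low counts in both experiments. In the GRCm38 (mm10) build, G6pdx (Entrez gene 14381) lies at chrX:74409483-74428880, Pgls (66171) at chr8:71592184-71596267 and Pgd (110208) at chr4:149149991-149166705. Taldo1 (21351) lies at chr7:141392160-141402976 and Tkt (21881) at chr14:30549131-30574724. Me1 (17436) lies at chr9:86581363-86695914, Me2 (107029) at chr18:73764954-73815438 and Idh1 (15926) at chr1:65158616-65186479.

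The pentose phosphate pathway branches off glycolysis at glucose-6-phosphate. Its oxidative branch reduces NADP to NADPH and ends in a pentose phosphate, and its non-oxidative branch returns pentose phosphates to glycolysis through transaldolase and transketolase. Malic enzyme and isocitrate dehydrogenase are further sources of NADPH, which macrophages spend on glutathione and thioredoxin reduction, on the oxidase of the respiratory burst, on nitric oxide synthesis and on lipid synthesis. The genes of several of these enzymes, G6pdx, Pgd, Taldo1, Tkt, Me1 and Idh1 among them, are known targets of NRF2, a transcription factor that electrophiles and oxidants activate.

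RNA of bone marrow-derived macrophages of C57BL/6 mice, matured with 20 ng/ml M-CSF, was read from its 3′ end in 18 libraries. Experiment 1 used wild-type cells. They were kept for 12 h with vehicle or with dimethyl itaconate at 0.25 mM, a methyl ester of a metabolite that macrophages make. LPS, the lipopolysaccharide of E. coli 0111:B4, was then added at 100 ng/ml for 4 h to part of the cells. This gave 4 groups with 3 libraries in each, named here vehicle (neither agent), compound (dimethyl itaconate), LPS, and compound plus LPS. Experiment 2 set 3 libraries of Irg1-/- cells against 3 of wild-type cells, which the labels give as stimulated for 24 h with LPS at 100 ng/ml together with interferon gamma at 50 ng/ml. Irg1 (now Acod1) encodes the enzyme that makes itaconate. The treatment text of experiment 2 names the knockout cells only, and the wild-type group rests on the genotype and treatment fields of its samples. All 6 libraries of experiment 2 were thus stimulated, and no unstimulated knockout group was analysed here. The sources used here do not say whether replicates were separate mice or cultures, so p-values measure only the spread between these samples, which may be technical.

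Library totals lay between 955718 and 7629669 counts in experiment 1 and between 3088644 and 5491684 in experiment 2. LPS replicate 3 was the shallowest library and stood apart: correlations of log2 CPM between LPS replicates were 0.782 to 0.89, against 0.933 to 0.97 within the other groups, and Prdx1 took 17.58% of its counts, against 3.815% and 3.279% in LPS replicates 1 and 2. Acod1 had 149, 56 and 182 counts in the Irg1-/- libraries and 12464, 14630 and 19145 in wild type, which matches the genotype labels. All 8 macrophage markers were detected in every group, but their summed level differed: in CPM (counts relative to the library total) it ranged over 7519 to 10530 in vehicle, 3460 to 5051 in compound, 2951 to 3888 in LPS and 3414 to 4618 in compound plus LPS libraries. Single markers did not move alike between vehicle and LPS, in mean CPM scaled by the trimmed mean of M values. Fcgr1 (111.7 and 625.3), Cd14 (93.94 and 645.2), Adgre1 (1028 and 1129) and Mertk (12.18 and 12.38) were higher with LPS. Lyz2 (3184 and 1518), Csf1r (638.7 and 336.8), Cd68 (260.4 and 160.7) and Itgam (739.9 and 545.6) were lower. The 7 matched neutrophil and progenitor markers summed to 350 to 517.2 CPM in vehicle, 179.4 to 320.1 in compound, 149.6 to 289.8 in LPS and 215.3 to 338.3 in compound plus LPS libraries, and Mpo was at 0 in both LPS-treated groups. In experiment 2 the macrophage sums overlapped (2092 to 2738 in Irg1-/- and 2282 to 2714 in wild type). Dendritic cell markers summed to at most 8.076 CPM in experiment 1 and 13.27 in experiment 2, B cell markers to at most 4.137, T and NK cell markers to at most 1.145 and mast cell markers to at most 3.051, erythroid markers were at 0, and stromal markers ranged over 21.91 to 77.62 in experiment 1 and 9.246 to 19.53 in experiment 2. The part of these markers in the results was not tested. In bulk RNA, fewer cells of a type and less RNA per cell cannot be told apart.

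G6pdx and Me1 carry the core of the antioxidant response element, the DNA element that NRF2 binds, in an annotated promoter window. The window runs from 250 bases before to 50 after a start. Pgd carries the core only at its second annotated start, which lies within the gene. The core searched was TGACNNNGC on either strand, where N is any base. RefSeq windows (GRCm38.p6) were searched for 7 of the 8 members, 10 windows in all. The core occurred in those of 3 members, against 13.991% of the 27025 genes whose windows were searched. The windows searched did not cover every gene. Me2 was left out of the search, so its lack of a match here says nothing about its promoter. Below are 120 bases of each, from 100 before to 20 after the start, 5′ to 3′ on the gene's strand, with the match in capitals.
G6pdx, chrX:74428861-74428980, minus strand: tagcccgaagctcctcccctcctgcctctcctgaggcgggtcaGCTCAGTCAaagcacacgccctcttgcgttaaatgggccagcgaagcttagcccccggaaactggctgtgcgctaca
Pgd, the second annotated start, chr4:149166063-149166182, minus strand: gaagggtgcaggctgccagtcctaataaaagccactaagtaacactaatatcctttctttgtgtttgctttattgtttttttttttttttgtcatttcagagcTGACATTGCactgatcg
Me1, chr9:86695895-86696014, minus strand: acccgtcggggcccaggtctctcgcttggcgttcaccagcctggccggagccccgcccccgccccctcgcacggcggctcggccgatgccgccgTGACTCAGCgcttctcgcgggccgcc
In G6pdx the match begins at position -57 and reads TGACNNNGC on the opposite strand. In Pgd it begins at position 4, after an annotated start that lies within the gene. The window at the outermost start of Pgd held no match, so the Pgd match may not be promoter sequence. In Me1 the match begins at position -6. A match of 9 letters with 3 of them free is common, and whether a factor binds there was not measured. The sterol regulatory element TCACNCCAC, found in 1.436% of the 27025 genes searched, and the E-box CACGTG, found in 8.093%, occurred in 0 of the 7 members searched.

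Levels below are CPM scaled by the trimmed mean of M values (TMM), in replicate order. Experiments 1 and 2 were scaled separately, so their levels are not compared. Fold changes are from edgeR's quasi-likelihood fit, with the standard error (SE) on the log2 scale, and each adjusted p uses the Benjamini-Hochberg method across every gene tested in the comparison. A gene is said to rise or fall at an adjusted p under 0.05. The main fit took all libraries of an experiment, TMM scaling, the filter on low counts and 1 mean per group. Calls are from it unless another setting is named. Where groups are said to overlap or to lie apart, this describes their 3 libraries each. How many of all genes lay apart in the same way was not counted. The comparisons share groups, such as vehicle, so their values are set side by side and not correlated.

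Of the oxidative branch, Pgd rose with the compound with and without LPS, G6pdx rose with it in LPS-treated cells, and Pgls was not called. Pgd encodes 6-phosphogluconate dehydrogenase, the last step of the branch and its later source of NADPH. Its level was 292.7, 267.4 and 210.2 CPM in vehicle, 609.4, 632.8 and 493.9 with the compound, 352.4, 293.7 and 356 with LPS, and 797.7, 598.3 and 1097 with both. With TMM the order was vehicle, LPS, compound, compound plus LPS, and only the last of these neighbouring pairs overlapped. Vehicle and LPS were barely apart (highest vehicle library 292.7, lowest LPS library 293.7). The order within both pairs changed with the scaling. With library totals the edgeR log2 change was -0.60 for LPS against vehicle (adjusted p = 0.0993). For compound plus LPS against compound it was -0.07 (adjusted p = 0.883), in place of 0.52 with TMM. Pgd rose 2.25-fold with the compound alone (log2 1.17, SE 0.29, edgeR adjusted p = 0.0353) and 2.49-fold with the compound in LPS-treated cells (log2 1.32, SE 0.29, adjusted p = 0.00532). With both agents it was 3.23-fold above vehicle (adjusted p = 0.000317). LPS alone gave a log2 change of 0.38 (95% interval -0.23 to 0.99, adjusted p = 0.339). The call against vehicle was lost when any vehicle or compound library, or compound plus LPS replicate 1, was left out (log2 1.05 to 1.28, adjusted p 0.0623 to 0.18).

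G6pdx encodes glucose-6-phosphate dehydrogenase, the entry and rate-limiting step of the pathway. Its level was 106.7, 36.35 and 76.96 CPM in vehicle, 121.3, 73.65 and 119.7 with the compound, 60.27, 28.64 and 14.53 with LPS, and 124.7, 63.69 and 115.9 with both. Every LPS library lay below every library that received the compound, and the vehicle libraries overlapped all other groups. In LPS-treated cells the compound raised G6pdx 2.76-fold (log2 1.47, SE 0.46, adjusted p = 0.0378). Without LPS the log2 change was 0.51 (95% interval -0.41 to 1.43, adjusted p = 0.688). LPS against vehicle gave log2 -1.01 (SE 0.46, adjusted p = 0.0973), which passed the threshold without vehicle replicate 2 or LPS replicate 1 (log2 -1.33 and -1.71). The rise in LPS-treated cells lost its call in 7 of the 12 fits that left out a library, each LPS library but replicate 1 among them (adjusted p 0.0514 to 0.146), and with only the compared groups fitted (adjusted p = 0.108). Over the 12 fits its log2 change ran from 1.15, without LPS replicate 3, to 2.19, without LPS replicate 1 (adjusted p = 0.00802). Counts of G6pd2, a near-identical copy, were 0 to 15 per library, so reads of the pair may be divided with some error.

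Pgls encodes 6-phosphogluconolactonase, the middle step. Its level was 42.31, 56.06 and 43.84 CPM in vehicle, 34.01, 46.73 and 45.81 with the compound, 24.17, 30.89 and 74.46 with LPS, and 38.04, 20.51 and 43.19 with both. All groups overlapped, and the highest level was that of LPS replicate 3. No comparison passed the test in the main fit, and the compound gave log2 changes of -0.17 (95% interval -0.97 to 0.64) without LPS and -0.25 (-1.11 to 0.61) with it.

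In the main fit the non-oxidative enzymes gave no call in any comparison of experiment 1. With library totals both were called lower with LPS than in vehicle, Taldo1 at log2 -1.23 (edgeR adjusted p = 0.0128), where the median of all genes was -1.17. Taldo1 encodes transaldolase, and its level was 1072, 3028 and 1305 CPM in vehicle, 1762, 2185 and 2090 with the compound, 799.7, 1836 and 1918 with LPS, and 3237, 2313 and 1977 with both. Vehicle replicate 2 and LPS replicate 1 lay far from their group, and only compound plus LPS against LPS did not overlap (log2 0.73, SE 0.40, adjusted p = 0.244). Tkt encodes transketolase, and its level was 58.52, 81.54 and 46.08 CPM in vehicle, 98.96, 109.3 and 89.21 with the compound, 66.56, 67.96 and 81.73 with LPS, and 100, 73.48 and 112.8 with both. Compound libraries lay above all vehicle and all LPS libraries. The difference from vehicle was 1.60-fold (log2 0.68, SE 0.29, adjusted p = 0.302), and in LPS-treated cells the compound gave log2 0.42 (95% interval -0.22 to 1.05, adjusted p = 0.387). Tkt with LPS alone changed sign with the scaling: log2 0.21 (adjusted p = 0.63) with TMM, -0.01 (adjusted p = 0.98) with the upper quartile and -0.75 (adjusted p = 0.0458) with library totals.

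Me1 showed the largest compound response of the 8 genes, both with and without LPS. It encodes the cytosolic malic enzyme, which oxidises malate to pyruvate and makes NADPH. Its level was 3.493, 7.134 and 3.68 CPM in vehicle, 24.24, 31.21 and 13.73 with the compound, 1.987, 8.987 and 0 with LPS, and 70.2, 45.32 and 44.43 with both. All groups were apart except vehicle and LPS. Me1 rose 5.04-fold with the compound alone (log2 2.33, SE 0.53, adjusted p = 0.0183) and 12.6-fold in LPS-treated cells (log2 3.66, SE 0.61, adjusted p = 0.00052). With both agents it was 11.7-fold above vehicle (adjusted p = 8.31e-05). The LPS level rests on 6, 16 and 0 counts, and in LPS replicate 3 a count of 0 allows a level of up to 5.45 CPM (3 counts). The size of the rise in LPS-treated cells turned on LPS replicate 2, without which the log2 change was 5.03 in place of 3.66 (adjusted p = 0.000164), and over the 12 fits that left out a library its lowest value was 3.16. The call against vehicle was lost without vehicle replicate 1 or 3 or compound replicate 1 or 2 (log2 2.06 to 2.29, adjusted p 0.072 to 0.135). Between compound plus LPS and compound, Me1 was 2.32-fold higher (log2 1.21, SE 0.48, adjusted p = 0.0882), a difference that passed the threshold without LPS replicate 2 or 3 (adjusted p = 0.036 and 0.0229).

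Me2 encodes a mitochondrial malic enzyme that uses NAD as its main cofactor. Its level was 14.85, 19.03 and 16.32 CPM in vehicle, 12.71, 14.04 and 14.89 with the compound, 8.279, 3.37 and 23.61 with LPS, and 11.18, 9.186 and 11.5 with both. The compound plus LPS libraries lay below all vehicle and all compound libraries, and the LPS libraries, with 25, 6 and 13 counts, spanned the other groups. No comparison passed the test in the main fit. The compound gave log2 -0.26 (95% interval -1.21 to 0.69) without LPS and 0.12 (-0.98 to 1.22) with it. Without LPS replicate 3, Me2 was lower with LPS than in vehicle (log2 -1.40, adjusted p = 0.0172, against -0.77 and 0.27 with it).

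Idh1 was the member called for LPS, with and without the compound. It encodes the cytosolic and peroxisomal isocitrate dehydrogenase, which makes NADPH as it turns isocitrate into 2-oxoglutarate. Its level was 410.3, 318.3 and 417.1 CPM in vehicle, 369.6, 351.1 and 389.5 with the compound, 103.7, 99.41 and 72.64 with LPS, and 166.3, 163.5 and 178.4 with both. The order was LPS, compound plus LPS, compound, vehicle, and only the last 2 groups overlapped. LPS lowered Idh1 4.12-fold (log2 -2.04, SE 0.27, adjusted p = 1.55e-05) and, in cells with the compound, 2.19-fold (log2 -1.13, SE 0.26, adjusted p = 0.00477). The compound raised it 1.82-fold in LPS-treated cells (log2 0.87, SE 0.27, adjusted p = 0.0349), but gave log2 -0.05 without LPS (95% interval -0.59 to 0.50). The rise in LPS-treated cells lost its call in 6 of the 12 fits that left out a library, LPS replicates 2 and 3 and each compound plus LPS library among them (adjusted p 0.0503 to 0.103), with only the compared groups fitted (adjusted p = 0.136) and without the filter on low counts (adjusted p = 0.0841).

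**Figure D1:**
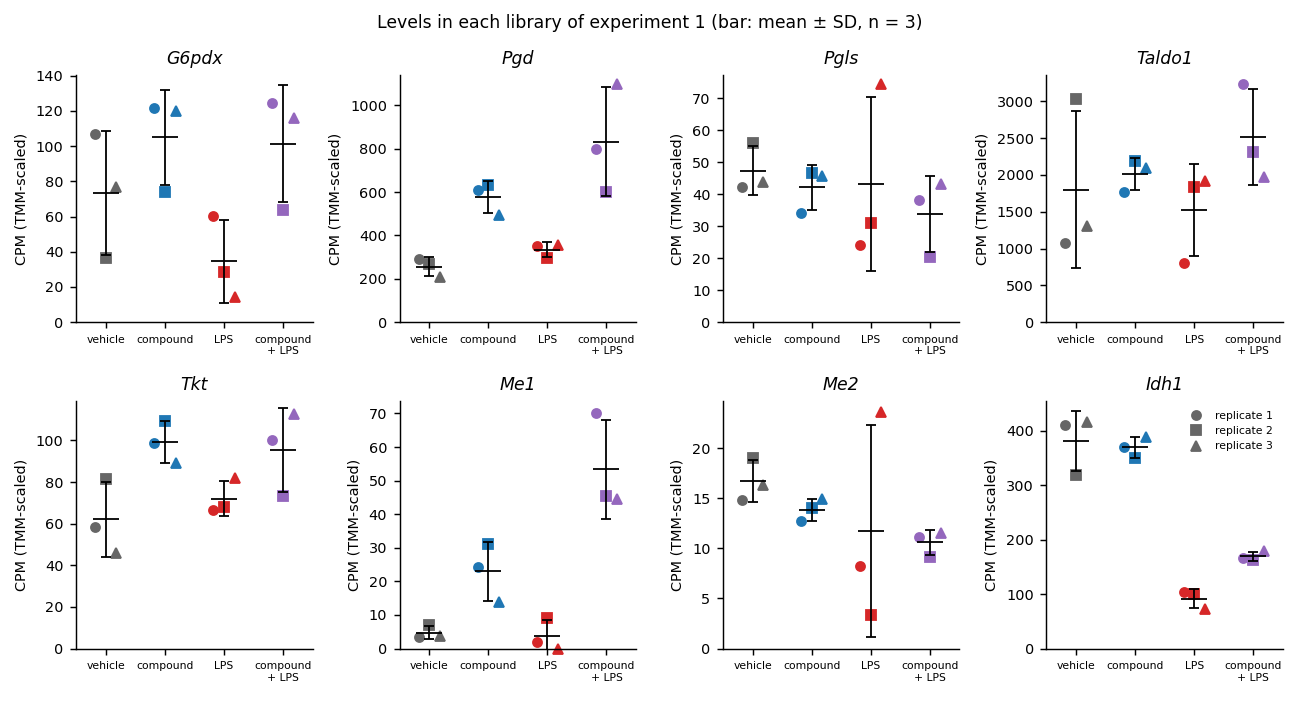
Each panel plots 1 member's TMM-scaled CPM (y axis, from 0) in the 12 libraries of experiment 1, by group on the x axis; marker shapes stand for replicate numbers, the long bar is the group mean and the capped line is ± SD (n = 3), which is not drawn below 0. Pgd, Me1 and, in LPS-treated cells, G6pdx and Idh1 sit higher with the compound, Idh1 sits lower with LPS (72.64 to 103.7 CPM against 318.3 to 417.1 in vehicle), and Pgls groups overlap.

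By comparison, the compound raised 2 of the 8 members against vehicle and lowered 0, where 1.33% of the 10285 genes tested rose and 1.51% fell. The members' median log2 change was 0.33, beside -0.05 over all genes. In LPS-treated cells the compound raised 4 and lowered 0, against 8.38% of all genes higher and 7.53% lower, with medians of 0.80 and 0.13. LPS against vehicle raised 0 and lowered 1, Idh1, against 16.0% higher and 18.4% lower, with medians of -0.24 and -0.24. In compound-treated cells LPS raised 0 and lowered 1, Idh1 again, against 11.4% higher and 7.56% lower, with medians of -0.05 and -0.06. Compound plus LPS against vehicle raised 2 and lowered 1, against 13.6% higher and 11.0% lower, with medians of 0.47 and -0.08.

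Whether the compound's effect differed with LPS was tested as an interaction. It was called for 0 of the 8 members with edgeR, against 2.91% of all genes, and 1 of 8 had an unadjusted p under 0.05. That member was Idh1 (log2 0.92, SE 0.37, edgeR adjusted p = 0.198), which DESeq2 called (log2 0.85, adjusted p = 0.0465). For G6pdx, called with LPS and not without, the interaction was log2 0.96 (95% interval -0.37 to 2.28, adjusted p = 0.458), and for Me1 it was 1.32 (-0.35 to 2.99, adjusted p = 0.41).

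**Figure D2:**
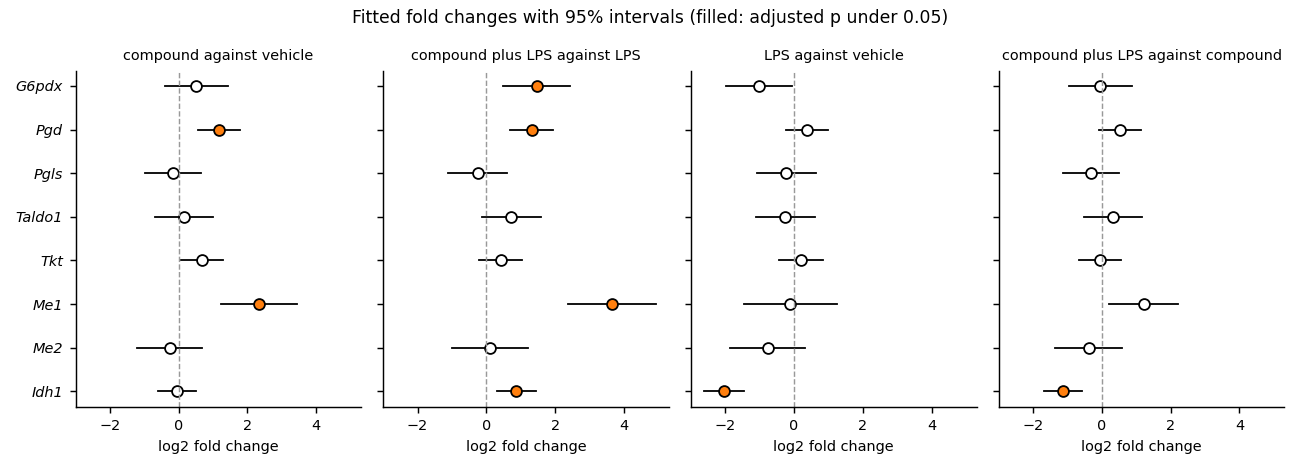
Fitted log2 fold changes (x axis) of the 8 members (y axis) with 95% intervals in 4 comparisons of experiment 1; filled points have an adjusted p under 0.05. Me1 lies farthest right in both compound panels (2.33 and 3.66), and Idh1 is the filled point left of 0 in both LPS panels (-2.04 and -1.13).

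The scaling of libraries moved the LPS comparisons. The median of all genes for LPS against vehicle was -0.24 with TMM, -0.33 with RLE size factors, -0.49 with the upper quartile and -1.17 with library totals, and members are best read relative to it. Under library totals, 6 of 8 members were lower with LPS (G6pdx, Pgls, Taldo1, Tkt, Me2 and Idh1), where 1641 higher and 1888 lower genes became 853 and 4950. Idh1 lay below the median under each scaling. Pgd with the compound alone lost its call with the upper quartile (log2 1.09, adjusted p = 0.0642) and with library totals (0.97, adjusted p = 0.117).

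**Figure D3:**
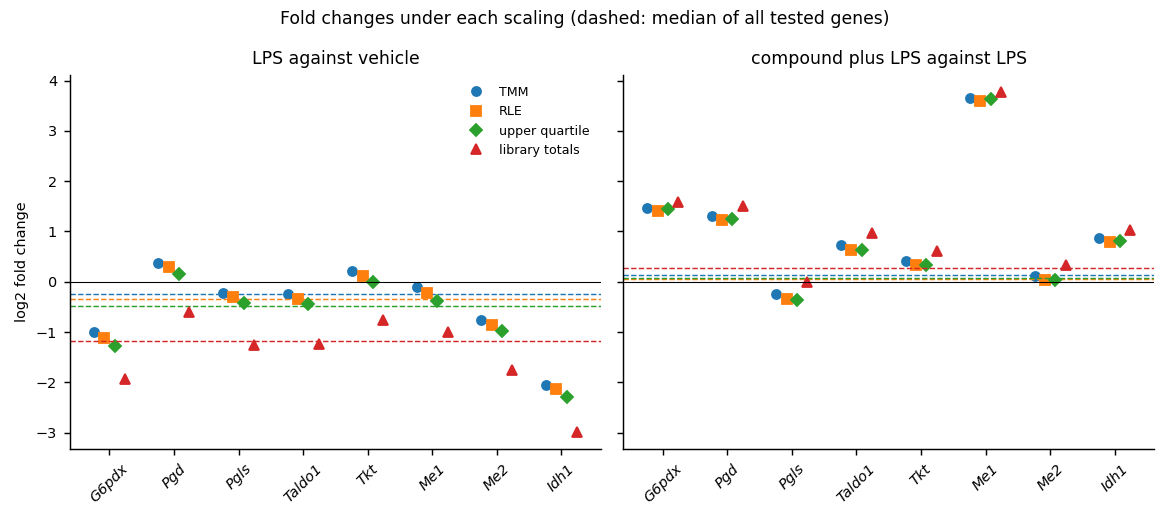
Log2 fold changes (y axis) of the 8 members (x axis) for LPS against vehicle and for compound plus LPS against LPS under 4 scalings of the libraries, with dashed lines for the median of all tested genes under each. With library totals (triangles) the LPS panel shifts down with the median to -1.17, while Me1 stays between 3 and 4 in the other panel.

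Ratios between genes within a library do not depend on the scaling. The pair of ratios below was chosen after the levels were seen, so they are given as descriptions with no test. Counts from 3′ ends of different genes need not be captured alike, so a ratio is read between groups only. The share of Me1 in the counts of Me1 and Me2 was 19.0%, 27.3% and 18.4% in vehicle and 65.6%, 69.0% and 48.0% with the compound. With both agents it was 86.3%, 83.1% and 79.4%, the highest of the 4 groups. The LPS libraries gave 19.4% (95% Wilson interval 9.19 to 36.3), 72.7% (51.8 to 86.8) and 0.00% (0 to 22.8, 0 of 13 counts), so they do not share a level. Idh1 counts per Pgd count fell from group to group without overlap except between LPS and compound plus LPS: 1.40, 1.19 and 1.98 in vehicle, 0.606, 0.555 and 0.789 with the compound, 0.294, 0.338 and 0.204 with LPS, and 0.208, 0.273 and 0.163 with both.

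**Figure D4:**
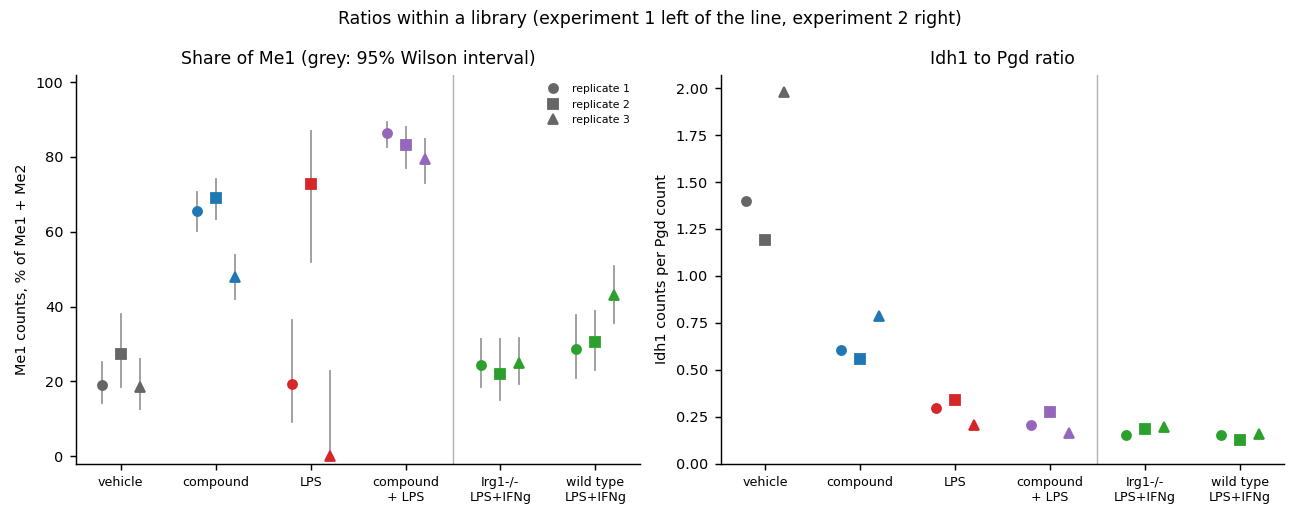
Left, Me1 counts as a percent of Me1 plus Me2 counts (y axis) with 95% Wilson intervals, and right, Idh1 counts per Pgd count (y axis), for each library by group (x axis); the vertical line divides the experiments and shapes stand for replicate numbers. The Me1 share is highest with compound plus LPS (79.4% to 86.3%), and the Idh1 to Pgd ratio is highest in vehicle (1.19 to 1.98).

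The remaining gene lists were, like the members, chosen with earlier results of these data known. Their counts are read beside the shares of all genes called, given above for each comparison. With library totals, 853 of the 10285 genes tested were higher with LPS than in vehicle and 4950 were lower. Of 13 other pentose phosphate and ribose genes, 9 were tested in experiment 1. The compound alone called 0 of them with edgeR. In LPS-treated cells it raised Dera, the deoxyribose-phosphate aldolase (3.68-fold, adjusted p = 0.0222, with 0 counts in LPS replicate 3), and lowered Rpe, the epimerase that interconverts pentose phosphates (2.37-fold, adjusted p = 0.0288, not called with library totals). The median log2 change was -0.34, beside 0.13 over all genes. LPS raised Rpe 3.51-fold (adjusted p = 0.00115), a call absent with library totals, and lowered H6pd, the enzyme that makes NADPH in the endoplasmic reticulum, 5.65-fold (adjusted p = 0.000266); with library totals 6 of the 9 were lower. H6pd was also 3.80-fold lower with both agents than with the compound (adjusted p = 0.00166) and 2.67-fold lower than in vehicle (adjusted p = 0.0125).

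Of 12 genes listed as other NADPH-making enzymes and NAD kinases, 10 were tested. Which cofactor each enzyme used in these cells was not measured. Mthfd2, a mitochondrial enzyme of folate metabolism, was the one gene of this list that the compound raised in both settings, 3.13-fold without LPS (adjusted p = 0.0151) and 2.61-fold with it (adjusted p = 0.0151). Its level was 19.4, 29.9 and 24.5 CPM in vehicle and 136.1, 192 and 197.9 with both agents, 7.16-fold higher (adjusted p = 1.69e-05). LPS raised it 2.74-fold (adjusted p = 0.00546), a call absent with library totals, and lowered Nnt, the mitochondrial transhydrogenase, 5.61-fold (adjusted p = 0.0049). The Nnt value rests on 11 counts in all over the 3 LPS libraries. With library totals 6 of the 10 genes were lower with LPS. Nadk, the cytosolic NAD kinase that makes NADP, was 2.77-fold higher with both agents than with the compound (adjusted p = 0.00219), but not called with library totals. Its mean level was lowest with the compound alone: 168.9 CPM in vehicle, 78.84 with the compound, 161.6 with LPS and 218.8 with both. Against vehicle, Nadk was called lower with the compound under the upper quartile, and not under TMM. Of the 11 tested of 12 neighbours in citrate, isocitrate and malate metabolism, LPS lowered 3, Idh3g, Slc25a1 and Slc25a11, where 18.4% of all genes were lower. With library totals LPS lowered 10, where 4950 of the 10285 genes tested were lower. The compound alone called 0. In LPS-treated cells the compound raised the citrate carrier Slc25a1 (5.60-fold, adjusted p = 0.0361) and the oxoglutarate carrier Slc25a11 (2.11-fold, adjusted p = 0.0494, not called with RLE or the upper quartile). Slc25a1 had 7 counts in all over the 3 LPS libraries, so its folds against LPS rest on values near the floor. Cs, citrate synthase, was 1.93-fold higher with both agents than with the compound, under TMM alone of the 4 scalings.

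Of 19 listed enzymes that spend NADPH, 18 were tested, and 4 rose and 0 fell with the compound against vehicle. These were Ptgr1 (5.73-fold, adjusted p = 0.000208), Nqo1 (7.88-fold, adjusted p = 0.00167), Txnrd1, the thioredoxin reductase (5.62-fold, adjusted p = 0.00295), and Gsr, the glutathione reductase (2.98-fold, adjusted p = 0.0152). In LPS-treated cells 5 rose, Ptgr1 (10.4-fold) and Txnrd1 (6.47-fold) among them, and 1 fell, Nos2, the inducible nitric oxide synthase (29.7-fold, adjusted p = 3e-04). Nos2 had 0 counts in all vehicle libraries and 214.3, 209.5 and 41.77 CPM with LPS. LPS against vehicle raised 5 and lowered 4 of the 18, where 16.0% of all genes were higher and 18.4% lower. With library totals it raised 2 and lowered 9, where 853 and 4950 of the 10285 genes tested were higher and lower. Compound plus LPS raised 5 and lowered 0 against compound (1 and 4 with library totals), and raised 9 and lowered 1 against vehicle (7 and 5 with library totals), Txnrd1 12.3-fold and Gsr 6.84-fold among them.

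Of the 10 genes listed for NRF2 and its oxidant-defence targets, the compound raised 4 and lowered 0 without LPS, and raised 7 and lowered 0 with it. The median log2 changes were 1.27 and 2.84, beside -0.05 and 0.13 over all genes. Without LPS these were Slc7a11, the cystine carrier (12.8-fold), Gclc and Gclm, the subunits of the enzyme that starts glutathione synthesis (11.8-fold and 4.95-fold), and Srxn1 (2.86-fold). In LPS-treated cells Gclc was 1455, 2203 and 1054 CPM against 17.9, 18.5 and 1.8 with LPS alone, 108-fold higher (adjusted p = 1.09e-06). LPS alone raised 4 and lowered 2, Gclc (3.84-fold) and Osgin1, which had 2, 0 and 0 counts in the LPS libraries. The interaction was called for Gclc, Hmox1 and Osgin1. Of 12 upper glycolysis genes tested of 13, LPS raised 7 and lowered 0, Pfkfb3 (11.3-fold) and Hk2 (7.95-fold) in front, and 5 and 2 with library totals. The compound lowered both of these in LPS-treated cells (4.14-fold and 3.96-fold) and raised Aldoa (2.61-fold) and the glucose carrier Slc2a1 (2.77-fold). Hk2, a hexokinase like Hk1 and Hk3 of the same list, had the list's 1 called interaction, which was not called with library totals.

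Across the 12 libraries of experiment 1, correlations between members varied widely from pair to pair. Over the 28 pairs of members, Pearson's r of log2 CPM ran from -0.416 (Pgls and Me1) to 0.842 (Pgd and Tkt), with a median of 0.201 and 8 pairs over 0.5. LPS replicate 3 carried several of these values. Without it, r was -0.0417 for Pgls and Me1, rose from 0.396 to 0.833 for Me2 and Idh1 and from 0.153 to 0.672 for Pgls and Idh1, and was highest for Pgd and Me1 (0.866, against 0.855 for Pgd and Tkt). These values describe points that share libraries and groups. The r over all pairs of genes was not counted, so the 8 pairs over 0.5 have no share to be read beside. The genes named next are those of highest r among all tested genes with a symbol. The genes most like Pgd were Serpinb9b (0.937), Niban2 (0.929) and Srxn1 (0.924). Most like Me1 were Gss (0.988), A530064D06Rik (0.964) and Fam104a (0.962), and most like G6pdx were Trmt10c (0.953), Zadh2 (0.953) and Sgpl1 (0.95). For Idh1 they were Gmnn (0.99), Cd84 (0.98) and Ankrd13d (0.98), and for Tkt they included Pgd (0.842) and Tbca (0.829). Taldo1 had the weakest, Cpeb1 (0.836), Ptpn1 (0.825) and Cmip (0.782). Pgls was most like Fmnl1 (0.961), Faap100 (0.922) and Slc29a1 (0.915), and Me2 most like Nup155 (0.98), Slc19a1 (0.97) and Haus7 (0.959).

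Experiment 2 asks what loss of Irg1 does in stimulated cells. With groups only, edgeR called 0 of 8 members, against 0.0632% of the 9491 genes tested. Pgd, Taldo1 and Me1 were lower in Irg1-/- libraries in 3 of 3 same-numbered pairs. How many of all genes were so, or did not overlap, was not counted, so both are given as descriptions only. Pgd was 144.5, 171 and 194.8 CPM in Irg1-/- and 208.2, 221 and 224.9 in wild type, and the groups did not overlap. Taldo1 was 405.6, 536.2 and 329.3 CPM against 701.7, 639.9 and 421.9, with overlap. Me1 was 7.807, 5.558 and 8.116 CPM against 9.944, 12.12 and 15.01, without overlap. In the edgeR fit with groups only, 1 of 8 members had an unadjusted p under 0.05, Me1 (log2 -0.78, SE 0.29, edgeR adjusted p = 0.599). DESeq2 called 0.

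The same-numbered libraries of experiment 2 varied together, so the fit with replicate number as a block is given beside it. The block was chosen from these same data and took the calls over all genes from 6 to 594, so its p-values depend on that choice. This blocked fit called 2 of 8 members, both lower in Irg1-/-, where 2.90% of all genes were called higher and 3.36% lower. Pgd was 1.29-fold lower (log2 -0.36, SE 0.11, adjusted p = 0.0263) and Taldo1 1.38-fold lower (log2 -0.47, SE 0.10, adjusted p = 0.00165). For Me1 the value was log2 -0.78 (SE 0.29, adjusted p = 0.107). The other 5 members lay between log2 -0.07 (Me2) and 0.18 (Tkt), and their groups overlapped. G6pdx was 97.49, 103.8 and 183.9 CPM in Irg1-/- and 94.14, 111.3 and 154.3 in wild type, and Idh1 was 22.09, 31.76 and 38.51 against 32.15, 27.74 and 35.53. Tkt was 13.52, 49.76 and 26.94 CPM against 14.58, 44 and 20.52, so its replicates differed by more than the genotypes did. Pgls was 16.57, 11.91 and 14.68 CPM against 14.58, 15.62 and 13.46, and Me2 was 24.18, 19.59 and 24.35 against 24.86, 27.74 and 19.86.

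**Figure D5:**
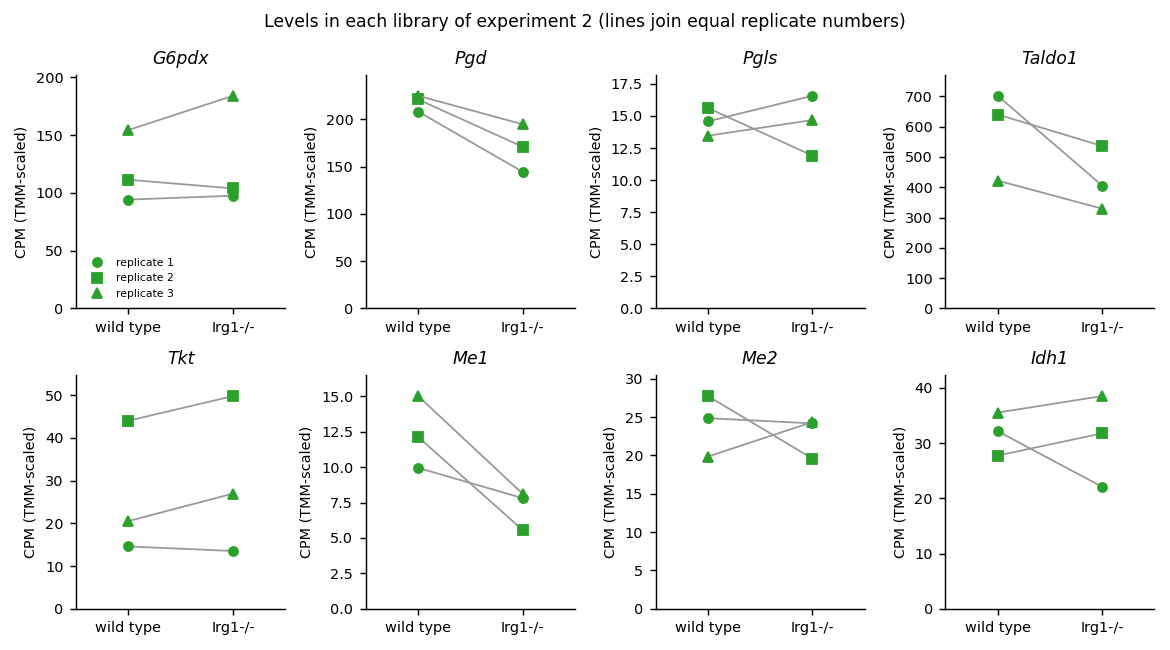
Each panel plots 1 member's TMM-scaled CPM (y axis, from 0) in wild-type and Irg1-/- libraries (x axis) after LPS and interferon gamma; lines join libraries of the same replicate number and shapes stand for those numbers. All 3 lines fall toward Irg1-/- for Pgd, Taldo1 and Me1, and lines cross or diverge for the other members. How many of all genes fall alike was not counted.

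With the same block, 4 of the 10 NRF2-list genes were lower in Irg1-/- and 0 higher: Slc7a11 (2.43-fold, adjusted p = 2.06e-07), Gclc (1.78-fold), Srxn1 (1.72-fold) and Gclm (1.49-fold). Of 16 tested NADPH spenders 4 were lower, Ptgr1 (1.90-fold, adjusted p = 2.56e-07), Nqo1 (1.98-fold) and Blvrb (1.28-fold) among them. Of 12 upper glycolysis genes 3 were lower, Slc2a1 (1.56-fold), Pfkp (1.44-fold) and Aldoa (1.24-fold). Of 8 other pentose phosphate genes 1 was higher, Rpia, the isomerase that makes ribose-5-phosphate (1.81-fold, adjusted p = 0.000134). Of the 8 other NADPH makers and the 11 neighbours tested, 0 were called. Without the block, edgeR called 0 genes of every list.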

How the data were processed

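The members and lists were chosen with earlier results of these data known. The authors deposited raw counts per Entrez gene, and per the submitters' processing notes the tools were STAR, HTSeq and DESeq2 on build mm10 (versions, annotation and strand option not given in the sources used here). Reads of a gene and of one that overlaps it may therefore be mixed. No molecular identifiers are described, so counting intervals and the floor of 3 counts cover counting error only. Of 24052 identifiers, 23969 were matched to a symbol in the RefSeq GRCm38.p6 table, and the 83 others held at most 2.14% of a library. Depth per library ran from 955718 to 7629669 counts.

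Each experiment was fitted with edgeR 4.0.16 (R 4.3.3): TMM scaling, filterByExpr with a minimum count of 10, 1 mean per group, a 2-sided quasi-likelihood F test and Benjamini-Hochberg adjustment over the 10285 (experiment 1) or 9491 (experiment 2) genes tested. Fold changes use a prior count of 0.125 and log2 CPM for likeness a prior count of 2. There were 7 comparisons. All members are named, and from the other lists at most 4 called genes per comparison, those of smallest adjusted p; likeness names the 3 genes of highest r. A few genes these rules would name are not reported here. Alternatives were RLE, upper quartile and library-total scaling, DESeq2 1.42.0, no filter, only the compared groups, a replicate block and leaving out each library. Pairing by replicate number was judged from how the deviations of same-numbered libraries correlated: 0.374, 0.354 and 0.455 for the pairs of experiment 2, all over 0.1.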

Additional observations from a re-analysis of the deposited data

How the results depend on the processing

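Over the settings other than left-out libraries, 380 of 416 values of single members kept their direction and their side of the threshold, 6 lost a call, 16 gained one, 13 uncalled values changed sign and 1 reversed, Tkt for LPS against vehicle with library totals (log2 -0.7547). Over the fits that left out a library, 562 of 624 did so, 24 lost a call, 5 gained one and 33 uncalled values changed sign. The count of members called for LPS against vehicle was 1, and it was 6 with library totals, 2 with the upper quartile, 2 without the filter and 1 to 2 with a library left out. For compound against vehicle it was 2, and 1 with library totals or the upper quartile, and 0 to 2 with a library left out. For compound plus LPS against LPS it was 4, and 2 with only the compared groups and 2 to 4 with a library left out. For compound plus LPS against compound it was 1, and 2 without the filter, with only the compared groups (with or without a replicate block), or with the replicate block, where Me1 was called (log2 1.33, adjusted p = 0.0497), and 1 to 2 with a library left out. For compound plus LPS against vehicle it was 3, and 5 with library totals. The members added there were Pgls (log2 -1.25, edgeR adjusted p = 0.0137) and Me2 (log2 -1.43, edgeR adjusted p = 0.019), both lower. For the interaction the count was 0, and 1 with DESeq2. For Irg1-/- against wild type it was 0, and 2 with the replicate block. The cause of these shifts was not tested. Same-numbered libraries of experiment 1 did not all correlate over 0.1, so the block there is no part of the design. The fit of the 2 compared groups with a block was chosen after seeing the data. It called Tkt for compound against vehicle (log2 0.74, adjusted p = 0.0312).

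Counts over all genes moved by more than 1.5 times as follows. LPS against vehicle went from 3529 to 5803 with library totals, 2108 with only the compared groups and 1465 with a block added. Compound against vehicle went from 292 to 623 with DESeq2, 458 without the filter, 1013 with only the compared groups, 1480 with a block added, and 140 to 803 with a library left out (140 to 171 without any vehicle or compound library, 803 without LPS replicate 3). Compound plus LPS against LPS went from 1636 to 653 and 779 with only the compared groups, without and with a block, and to 885 and 1003 without compound plus LPS replicate 1 and 2. Compound plus LPS against compound went from 1948 to 3196 with only the compared groups, and compound plus LPS against vehicle from 2528 to 4093 with library totals. The interaction went from 299 to 762 with DESeq2, 497 without the filter and 132 to 806 with a library left out, where it moved by over 1.5 times in each fit but those without vehicle replicate 2 or LPS replicate 2. Irg1-/- against wild type went from 6 to 44 with DESeq2, 40 without the filter, 594 with the block and 3 without replicate 3 of either group. With library totals, higher against lower calls went from 1398 and 1130 to 703 and 3390 for compound plus LPS against vehicle, from 1170 and 778 to 709 and 2027 against compound, and from 137 and 155 to 72 and 194 for compound against vehicle. Me1, Me2 and the LPS libraries are limited by low counts.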
